A study of Rattus norvegicus with 6 samples.

Results

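Tetraspanins are small membrane proteins that cross the lipid bilayer several times and gather integrins, immunoglobulin proteins, proteases and one another into patches called tetraspanin-enriched microdomains. They also sort cargo into late endosomes and exosomes. In the nervous system Cd9, Cd81 and Tspan2 are known from oligodendrocytes and myelin, Tspan3 is known as a partner of claudin-11 and integrins in oligodendrocytes, and Cd37 and Cd53 are known from leukocytes. The family was taken by gene symbol from the deposited table, as protein-coding entries named Tspan with a number together with Cd9, Cd37, Cd53, Cd63, Cd81, Cd82 and Cd151, which gave 27 of 37991 genes.

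RNA was sequenced from cultured cells of SD rats. Differentiated cells, labelled rat oligodendrocytes after a change of growth factors, gave 3 libraries, and rat oligodendrocyte precursors in Raff medium, the control condition, gave the other 3. Replicates carry the numbers 1, 2 and 5 in both groups, and titles give day 3 for differentiated replicates 1 and 2 and day 0 for precursor replicates 1 and 2. The labels name no transgene, deletion or sorting step, nor do they give the culture or animal each replicate came from. The p-values therefore reflect the spread among these 6 libraries and nothing wider, and part of that spread may be technical.

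Total counts ran from 55522101 to 79898629 per differentiated library and from 63781754 to 68104279 per precursor library. The markers of the labelled cell types were present. Their summed level for 5 oligodendrocyte genes was 11443 to 15215 CPM (reads of a gene per 1e+06 reads, with library sizes adjusted by TMM, the trimmed mean of M values) in differentiated libraries and 1038 to 1437 CPM in precursor libraries, and for 4 precursor genes it was 685 to 894 and 681 to 1220 CPM. Genes of other cells were present as well. The sum of 8 astrocyte markers was 7486 to 7713 CPM in differentiated and 4189 to 5892 CPM in precursor libraries, and that of 13 microglia and macrophage markers was 531 to 1003 and 552 to 1358 CPM. None of the 13 was at 0 in all libraries. Most of the astrocyte sum was Gfap, at 5702 to 6114 CPM in differentiated and 3195 to 4812 CPM in precursor libraries. The replicate 1 libraries of both groups stood apart, with summed markers of fibroblasts and pericytes at 187 CPM in differentiated 1 and 301 CPM in precursor 1, against 42.5 to 86.5 CPM in the other 4 libraries. Most of these sums was Col3a1, at 126 CPM in differentiated 1 and 221 CPM in precursor 1. Col1a1, Col1a2, Dcn and Lum were also highest in replicate 1 of each group. Pdgfrb was not highest in differentiated 1, at 10.8, 9.25 and 12.4 CPM in differentiated 1, 2 and 5. It had 6.29, 5.10 and 4.33 CPM in precursor 1, 2 and 5, all below the differentiated libraries. Rgs5 was at 0 in every library. Each library is RNA of a whole culture, so fewer cells of a type and less RNA per cell cannot be told apart.

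Of the 27 tetraspanin genes, 25 passed the low-count filter and 2 did not, Tspan1 and Tspan32. Tspan2 and Tspan31 rose in differentiated cells and 0 members fell at an edgeR quasi-likelihood adjusted p under 0.05. That is 8% of the tested members higher, near the 5.65% of all 17797 tested genes that were higher, while 3.21% of all genes were lower. At an unadjusted p under 0.05, 4 members were higher, beside 12.4% of all genes, and 1 was lower, beside 10.7%. DESeq2 called 4 higher (Cd9, Tspan2, Tspan15 and Tspan31), beside 8.56% of all genes, and 0 lower, beside 7.05%. With the replicate number as a block, 6 members rose (24%, against 14.9% of all genes) and 2 fell (8%, against 15.7%). The 6 were Tspan2, Tspan31, Cd9, Cd81, Tspan11 and Tspan15, and the 2 were Tspan12 and Cd53. The median log2 fold change over the 25 members was 0.20, beside -0.04 over all genes tested. With library size alone as scaling it was 0.043 (all genes -0.19), and by limma on log2(TPM + 1) it was -0.085 over 22 members (all genes -0.23), of which 7 were above 0.

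**Figure D1:**
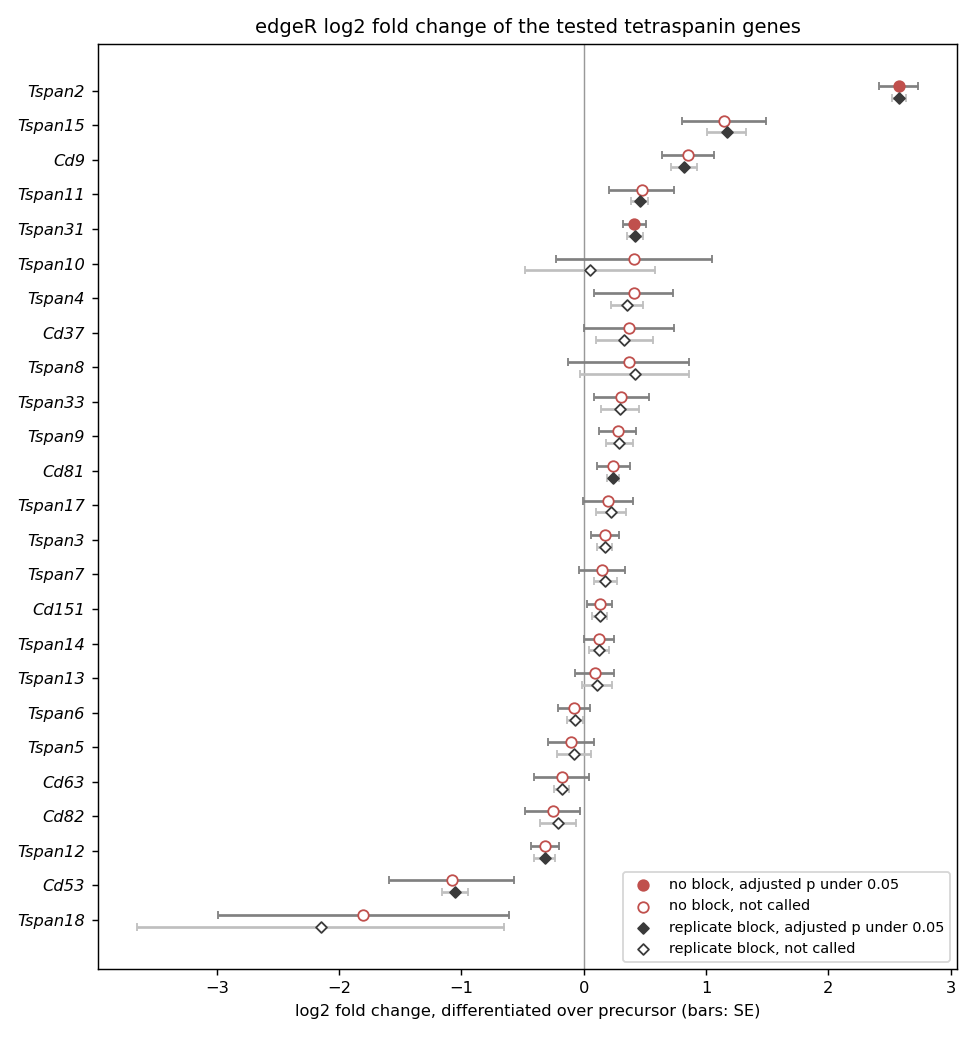
Log2 fold change, differentiated over precursor, of the 25 tested tetraspanin genes with its standard error, from edgeR without a block (circles) and with the replicate block (diamonds); filled symbols have an adjusted p under 0.05. Tspan2 stands apart at 2.58, and most other members lie within 1 of zero. The block narrows the error bars of nearly all members, called or not, and widens that of Tspan18.

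Windows upstream of the members' start sites were available for 24 of the 27 from RefSeq (build GRCr8), each reaching from 250 bases before to 50 bases after the start. They are shown to let the upstream letters be read beside the values, for the called genes Tspan2 (chr2:192866030-192866329, plus strand) and Tspan31 (chr7:64777708-64778007, minus strand), and for Cd9 (chr4:159975309-159975608, minus strand) and Tspan15 (chr20:30717602-30717901, minus strand), which had the largest positive log2 fold changes after Tspan2. The Tspan31 window lies inside the annotated span of the gene. Capitals mark matches on either strand to 6 short motifs. The promoter elements searched were the GC box, spelled GGGCGG, the CCAAT box, and the TATA box with the letters TATAAA. Sox factors were represented by the core ACAAAG and, as a variant of that core, by the letters ACAATG. The myelin regulatory factor Myrf was represented by its core CTGGCAC.
Tspan2: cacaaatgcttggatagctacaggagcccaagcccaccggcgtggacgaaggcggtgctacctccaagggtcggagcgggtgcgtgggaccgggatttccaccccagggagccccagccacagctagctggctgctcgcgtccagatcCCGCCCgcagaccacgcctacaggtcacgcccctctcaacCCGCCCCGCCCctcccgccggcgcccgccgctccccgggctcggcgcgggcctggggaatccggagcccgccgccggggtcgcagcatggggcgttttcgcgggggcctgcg
Tspan31: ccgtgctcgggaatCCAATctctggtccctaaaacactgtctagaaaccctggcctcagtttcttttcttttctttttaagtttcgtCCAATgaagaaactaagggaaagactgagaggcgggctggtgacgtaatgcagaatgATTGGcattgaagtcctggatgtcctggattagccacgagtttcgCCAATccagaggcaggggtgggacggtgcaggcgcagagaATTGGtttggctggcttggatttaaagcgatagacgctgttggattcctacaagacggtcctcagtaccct
Cd9: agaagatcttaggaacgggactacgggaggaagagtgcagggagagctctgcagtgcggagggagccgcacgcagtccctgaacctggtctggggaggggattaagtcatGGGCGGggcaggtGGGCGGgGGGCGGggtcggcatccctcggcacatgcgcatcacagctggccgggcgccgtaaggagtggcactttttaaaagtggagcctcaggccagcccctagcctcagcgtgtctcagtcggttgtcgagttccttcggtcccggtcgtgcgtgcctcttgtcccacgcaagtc
Tspan15: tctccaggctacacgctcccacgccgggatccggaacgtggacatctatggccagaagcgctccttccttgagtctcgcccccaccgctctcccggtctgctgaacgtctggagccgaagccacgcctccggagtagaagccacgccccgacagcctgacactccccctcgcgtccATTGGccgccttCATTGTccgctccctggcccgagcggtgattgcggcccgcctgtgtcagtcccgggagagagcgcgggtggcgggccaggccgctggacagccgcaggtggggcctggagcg

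The Tspan2 and Cd9 windows each held 3 GC boxes, of which 2 in Tspan2 share a base. The Tspan31 window held 5 CCAAT boxes and no GC box. The Tspan15 window held 1 CCAAT box and 1 match to ACAATG. A GC box was present in 14 of the 24 member windows (58.3%) and in 33.1% of all 33469 windows, and a CCAAT box in 8 (33.3%) and in 37.5%. The core ACAAAG was in 5 member windows (20.8%) and in 18.8% of all, ACAATG in 2 (8.33%) and in 13.2%, the TATA box in 1 (4.17%) and in 14.2%, and the Myrf core in 0 and in 4.75%. The median GC content was 68.3% in member windows and 51.7% in all windows. All windows were counted with no filter on gene type, while the members are all protein-coding, so the 2 sets are unlike. These are matches of letters in these windows and not measured binding sites.

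Per transcript length, on the deposited TPM scale, 3 members made up most of the family. Cd63, a protein of late endosomes and exosomes, took 37.1%, 30.8% and 30.8% of the summed TPM of the family in differentiated 1, 2 and 5, against 49.7%, 39.9% and 37.7% in precursor 1, 2 and 5. Cd9 took 23.0%, 18.4% and 16.8% in differentiated libraries and 12.3%, 13.0% and 11.8% in precursor libraries, and the groups did not overlap. Cd81 took 16.6 ± 3.7% in differentiated and 15.9 ± 3.1% in precursor libraries (SD, n = 3 each). Together these 3 held 67.0% to 72.5% in differentiated and 68.3% to 74.5% in precursor libraries. Tspan2 took 3.51 ± 0.08% in differentiated and 0.67 ± 0.06% in precursor libraries. The whole family made up 0.717%, 0.625% and 0.647% of the TPM of protein-coding genes in differentiated 1, 2 and 5, and 0.590%, 0.584% and 0.587% in precursor 1, 2 and 5. These shares are descriptions and were not tested.

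**Figure D2:**
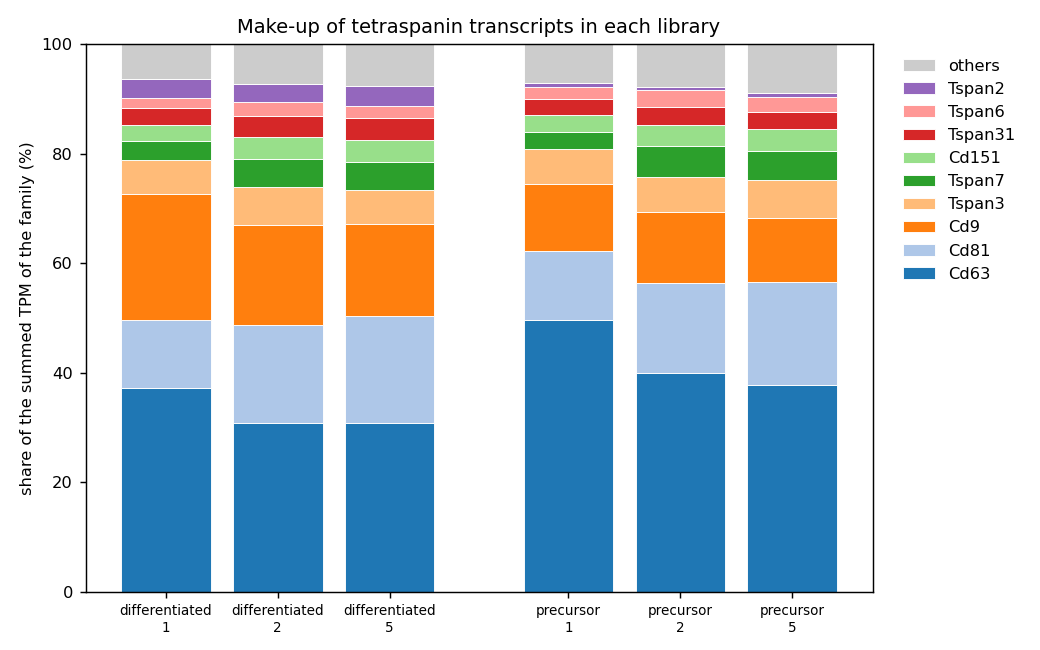
Share of the summed TPM of the 27 tetraspanin genes (vertical axis, percent) held by each of the 9 most abundant members and by all others, 1 bar per library. Cd63 is the largest block in every bar; the Cd9 and Tspan2 blocks are taller in the 3 differentiated bars.

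In mean TPM over the 6 libraries the order was Cd63 (1231), Cd81 (536), Cd9 (517), Tspan3 (212), Tspan7 (153), Cd151 (119), Tspan31 (110), Tspan6 (80.2), Tspan2 (67.1), Tspan13 (62.5), Tspan12 (53.4), Tspan14 (29.1), Cd82 (23.5), Tspan11 (17.0), Tspan4 (15.1) and Tspan17 (10.1). The other 11 members averaged under 10 TPM. Cd81 and Cd9 exchanged places between the group means. Cd9 was at 617 ± 101 and Cd81 at 530 ± 123 TPM in differentiated libraries. In precursor libraries Cd9 was at 416 ± 30.2 and Cd81 at 541 ± 150 TPM (SD, n = 3 each). By library, Cd9 had 733, 570 and 549 TPM and Cd81 had 398, 553 and 639 TPM in differentiated 1, 2 and 5. Cd81 was thus above Cd9 in differentiated 5. Their ranges overlapped within each group. Tspan2 was at 112 ± 5.35 TPM in differentiated libraries, beside Cd151 at 114 ± 19.8 TPM and Tspan31 at 116 ± 14.9 TPM. In precursor libraries Tspan2 was at 22.5 ± 2.35 TPM, beside Cd82 at 27.4 ± 5.06 TPM.

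Among the members known from myelin and oligodendrocytes, Tspan2 rose about 6-fold. Tspan2 (64521) had 518, 411 and 422 CPM in differentiated 1, 2 and 5, against 89.5, 67.7 and 69.4 CPM in precursor 1, 2 and 5. The lowest differentiated library was several times the highest precursor library. The fitted fold change was 5.96 (log2 fold change 2.58, SE 0.16, edgeR adjusted p = 0.000312, higher in 3 of 3 same-numbered pairs). The call held in each of the 6 fits that left out 1 library, with log2 fold changes of 2.47 to 2.72. In the reference annotation the gene overlaps Tshb, a hormone subunit gene, which had a count of 0 in every library.

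Cd9 (24936), a tetraspanin of myelin that also occurs in many other cells, had 1005, 657 and 593 CPM in differentiated 1, 2 and 5, against 450, 435 and 362 CPM in precursor 1, 2 and 5. Every differentiated library was above every precursor library, and differentiated 1 was the highest. The log2 fold change was 0.85 with SE 0.21, and the edgeR adjusted p was 0.0502, so the gene was not called. With the replicate block Cd9 rose (log2 fold change 0.82, adjusted p = 0.0027). Without both replicate 1 libraries the log2 fold change was 0.65 (adjusted p = 0.0154), and over the 6 fits without 1 library it was 0.60 to 0.999. The test was passed without differentiated 1 (adjusted p = 0.0459) and not without any other library (adjusted p of up to 0.145).

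Cd81 (25621), which binds the same immunoglobulin partners as Cd9, had 705, 825 and 891 CPM in differentiated 1, 2 and 5, against 592, 716 and 741 CPM in precursor 1, 2 and 5. The groups overlapped, but each differentiated library was above its same-numbered precursor library. Its log2 fold change of 0.24 (SE 0.14) did not pass the test without the block (edgeR adjusted p = 0.344) and passed with it (adjusted p = 0.0136). On the TPM scale its log2 fold change was -0.02, beside a median of -0.23 over all genes by limma on log2(TPM + 1). The summed astrocyte markers, mostly Gfap, were also higher in each differentiated library than in any precursor library. Gfap itself was not called (edgeR adjusted p = 0.0849). Of the 8 markers, 4 were higher without the block, beside 5.65% of all genes, and 0 were lower, beside 3.21%. Slc1a2 was lower in 3 of 3 pairs and not called. The part of astrocytes in the Cd9 and Cd81 values was not tested.

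Tspan3 (300733) and Cd82 (83628) did not pass the test in either fit. Tspan3 had 388, 348 and 308 CPM in differentiated 1, 2 and 5, against 326, 299 and 299 CPM in precursor 1, 2 and 5 (log2 fold change 0.18, SE 0.12, edgeR adjusted p = 0.429). Cd82, a tetraspanin of the plasma membrane and endosomes, had 39.4, 37.2 and 36.9 CPM in differentiated libraries, against 62.6, 37.2 and 35.6 CPM in precursor libraries. Precursor 1 alone was high. The log2 fold change of Cd82 was -0.26 with SE 0.22 over all libraries and 0.06 without precursor 1.

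**Figure D3:**
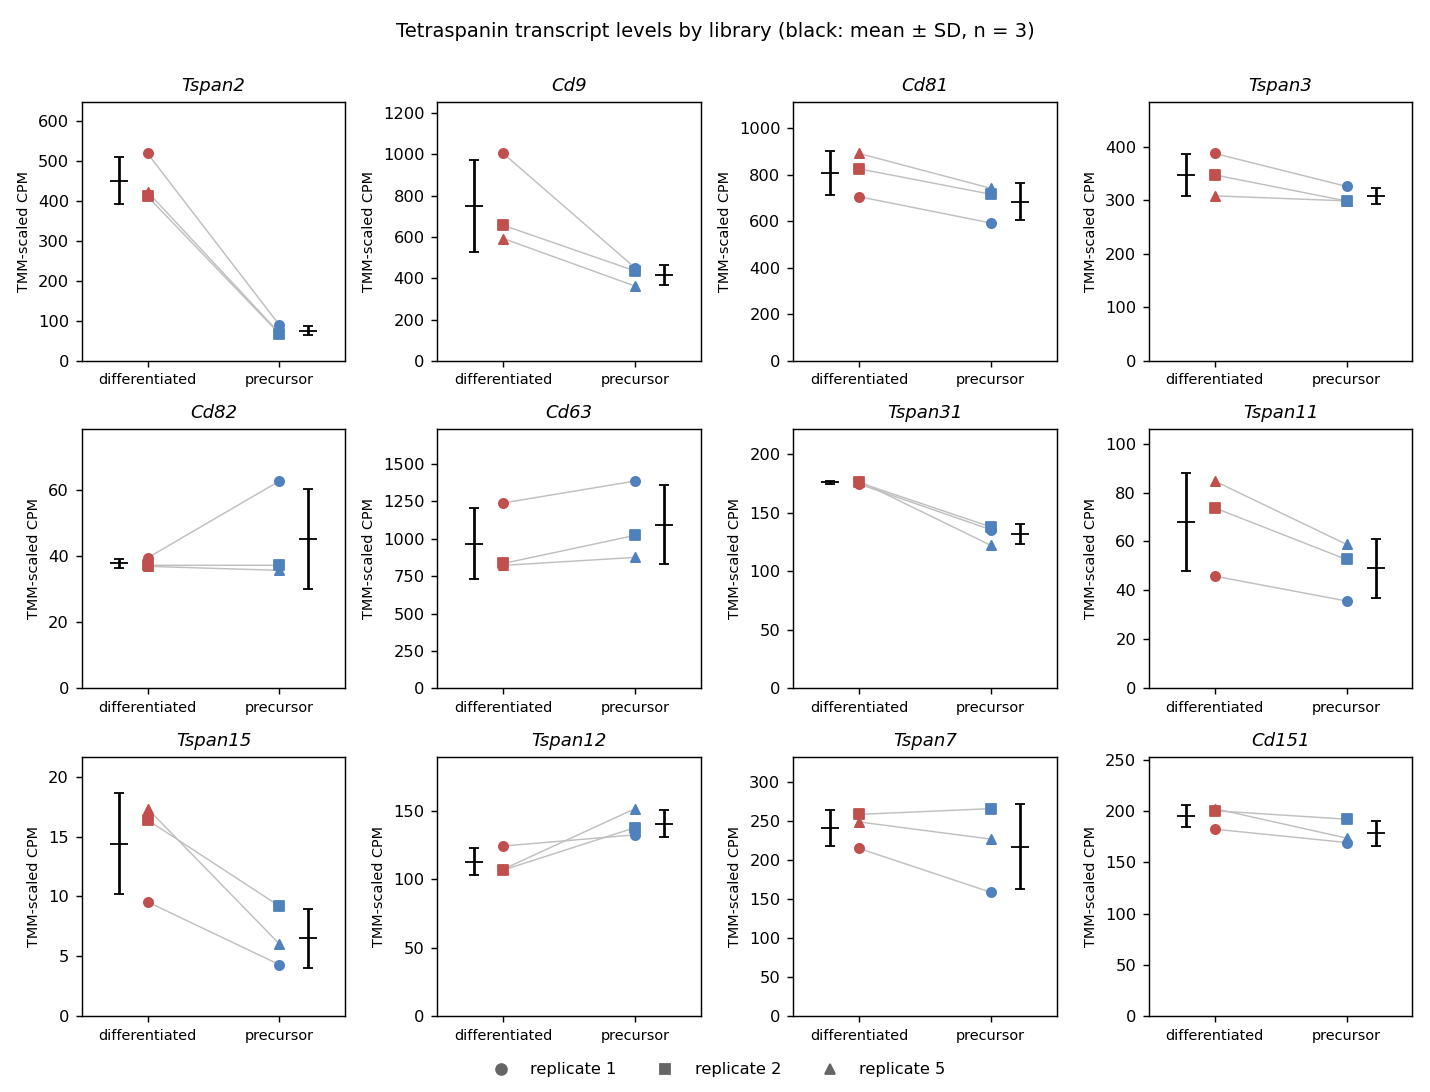
TMM-scaled CPM (vertical axes, each from zero) of 12 tetraspanin genes in each library, differentiated left and precursor right, with grey lines joining same-numbered libraries and black marks for mean and SD (n = 3). The groups do not overlap for Tspan2, Cd9, Tspan31, Tspan15 and Tspan12; in the Cd82 panel precursor 1 stands above the other 5 libraries.

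Tspan31 (362890) was the other called member, with a small change. It had 175, 176 and 177 CPM in differentiated 1, 2 and 5, against 136, 138 and 122 CPM in precursor 1, 2 and 5. The differentiated libraries lay close together and all above the precursor libraries. The log2 fold change was 0.41 with SE 0.10 (edgeR adjusted p = 0.0414, higher in 3 of 3 pairs). The call was lost in each of the 6 fits without 1 library (adjusted p of 0.0611 to 0.172, log2 fold changes of 0.36 to 0.45) and with library size alone as scaling (log2 fold change 0.27, adjusted p = 0.147). It was also lost with no low-count filter (adjusted p = 0.0588) and by limma on log2(TPM + 1). There the log2 fold change was 0.16 (adjusted p = 0.559), beside a median of -0.23 over all genes. The gene overlaps Cdk4 and Agap2 in the reference annotation, and the sources used here do not give whether strand was used in counting. Cdk4, a cell-cycle kinase, had 300.5, 393 and 348 CPM in differentiated libraries and 344, 434 and 364 CPM in precursor libraries, lower in 3 of 3 pairs and not called (log2 fold change -0.13, edgeR adjusted p = 0.64).

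The TspanC8 members bind the protease Adam10 and steer its traffic and choice of substrates. Of the 6, 0 were called without the block, and Tspan15 rose with it. Tspan15 (679462) had 9.54, 16.4 and 17.3 CPM in differentiated 1, 2 and 5, against 4.30, 9.20 and 6.03 CPM in precursor 1, 2 and 5, and the groups did not overlap. Its log2 fold change was 1.15 with SE 0.34 (edgeR adjusted p = 0.0913 without and 0.00307 with the block, higher in 3 of 3 pairs). Without differentiated 1 the log2 fold change of Tspan15 was 1.38 and passed (adjusted p = 0.0493). It did not pass without any other library (adjusted p of 0.0823 to 0.269). Tspan14, the most abundant of the 6 by TPM, had 40.0, 40.2 and 46.1 CPM in differentiated and 35.6, 40.5 and 39.7 CPM in precursor libraries. Log2 fold changes were 0.12 for Tspan14, 0.20 for Tspan17, 0.31 for Tspan33, -0.10 for Tspan5 and 0.41 for Tspan10, with an edgeR adjusted p of 0.481 to 0.808. Tspan10 rested on 27 to 196 reads a library and had its highest count in differentiated 1. Without that library its log2 fold change was -0.62. Adam10 (29650) itself had 52.0, 45.5 and 42.1 CPM in differentiated 1, 2 and 5, against 58.8, 52.7 and 53.7 CPM in precursor 1, 2 and 5. Its log2 fold change of -0.24 was not called without the block and passed with it (edgeR adjusted p = 0.286 and 0.0444).

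Tspan12 (362326), a coreceptor of the Norrin receptor Frizzled-4, fell with the block. It had 124, 107 and 107 CPM in differentiated 1, 2 and 5, against 132, 138 and 152 CPM in precursor 1, 2 and 5, and the groups did not overlap. The log2 fold change was -0.32 with SE 0.11 (edgeR adjusted p = 0.142 without and 0.0366 with the block, lower in 3 of 3 pairs). Fzd4, the gene of Frizzled-4, had 0.446 to 1.29 CPM in differentiated and 0.235 to 1.43 CPM in precursor libraries, far below Tspan12. Lrp5, its other coreceptor, had 7.72 to 11.6 CPM in differentiated and 9.37 to 18.7 CPM in precursor libraries (log2 fold change -0.52, edgeR adjusted p = 0.336 without and 0.0313 with the block).

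Over the 25 tested members, the differentiated libraries were all above the precursor libraries for 4 (Tspan2, Cd9, Tspan31 and Tspan15), where 16.5% of all genes were, and all below for 2 (Tspan12 and Tspan18), where 13.8% of all genes were. Tspan18 had 11, 0 and 8 reads in differentiated libraries and 13, 28 and 33 in precursor libraries. It passed the low-count filter through its precursor libraries, and its log2 fold change of -1.80 (SE 1.19) was not called. Tspan1 had 12 reads in differentiated 2, 4 in precursor 2 and 0 in the others. Tspan32, a leukocyte gene, had 12 reads in precursor 5 and 0 in the other 5 libraries, where 3 counts would be 0.0418 to 0.0546 CPM.

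Cd53 (24251), a leukocyte tetraspanin, had 14.2, 4.84 and 10.5 CPM in differentiated 1, 2 and 5, against 30.7, 9.27 and 22.4 CPM in precursor 1, 2 and 5. The groups overlapped, while every differentiated library was below its same-numbered precursor library. The log2 fold change was -1.08 with SE 0.51 (edgeR adjusted p = 0.259 without the block). With the block it was -1.05 (adjusted p = 0.000868). Cd37 (29185), also of leukocytes, had 3.999, 2.87 and 1.82 CPM in differentiated and 2.96, 1.91 and 1.86 CPM in precursor libraries (log2 fold change 0.37, SE 0.37, edgeR adjusted p = 0.62). Cd37 overlaps Tead2 in the reference annotation, which was more abundant at 8.54, 12.5 and 12.1 CPM in differentiated and 17.4, 17.7 and 15.2 CPM in precursor libraries. The 13 microglia and macrophage markers summed to 1003, 567 and 531 CPM in differentiated 1, 2 and 5, against 1358, 576 and 552 CPM in precursor 1, 2 and 5. Of the 13, 1 was higher without the block, beside 5.65% of all genes, and 0 were lower, beside 3.21%. With the block 2 were higher, beside 14.9% of all genes, and 4 were lower, beside 15.7%. The 3 lymphocyte markers Cd79a, Ms4a1 and Cd3e had a count of 0 in every library. The part of microglia in the Cd53 and Cd37 values was not tested.

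**Figure D4:**
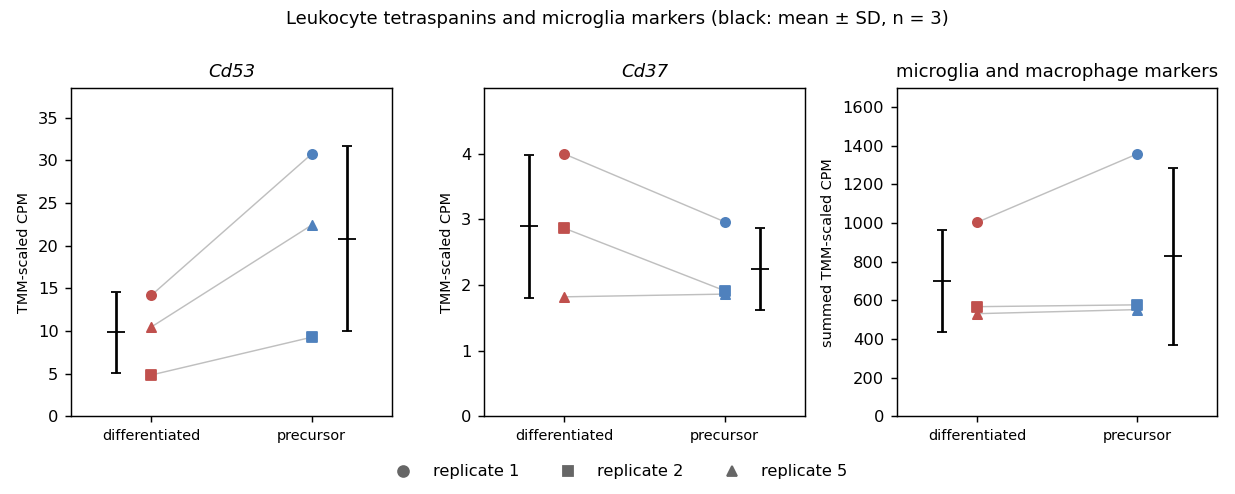
TMM-scaled CPM of Cd53 and Cd37 and the summed CPM of 13 microglia and macrophage markers in each library, differentiated left and precursor right, with grey lines joining same-numbered libraries and black marks for mean and SD (n = 3). Cd53 is lower in the differentiated library of each pair, Cd37 is not, and the marker sum is highest in the replicate 1 library of each group.

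Cd63, the most abundant member, was not called. Cd63 (29186) had 1238, 834 and 821 CPM in differentiated 1, 2 and 5, against 1384, 1022 and 875 CPM in precursor 1, 2 and 5 (log2 fold change -0.18, SE 0.22, edgeR adjusted p = 0.697 without and 0.0598 with the block). By limma on log2(TPM + 0.1) it was called lower (log2 fold change -0.44, adjusted p = 0.0498). The median over all genes in that fit was -0.27. Its CPM was lower in 3 of 3 pairs, and the replicate 1 library was the highest of each group. Tspan7 (363447), known from neurons as a regulator of AMPA receptor traffic, had 214, 258 and 248 CPM in differentiated and 158, 265 and 226 CPM in precursor libraries, with a log2 fold change of 0.15. The sum of 8 neuron markers was lower, at 26.3 to 34.8 CPM in differentiated and 29.9 to 56.8 CPM in precursor libraries. The cells that gave the Tspan7 RNA were not tested. Cd151 (64315), a partner of laminin-binding integrins, had 183, 201 and 203 CPM in differentiated and 169, 192 and 174 CPM in precursor libraries, with a log2 fold change of 0.13. Neither was called (edgeR adjusted p = 0.711 for Tspan7 and 0.52 for Cd151).

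The table holds a second entry for Cd151 and for Tspan4, both outside the family as taken here. LOC100911730, described as CD151 antigen-like, had 92.4% to 94.4% of the Cd151 count in each library, and LOC100911766, described as tetraspanin-4-like, had 98.6% to 100.1% of the Tspan4 count. The sources used here do not give how reads that match both entries were shared out, and the levels of Cd151 and Tspan4 are uncertain for that reason. With the counts of each pair of entries summed, the log2 fold change was 0.13 for Cd151 and 0.41 for Tspan4, as with the single entries. Tspan4 (293627), known from migrasomes, had 37.6, 16.7 and 22.0 CPM in differentiated libraries and 24.7, 16.4 and 16.4 CPM in precursor libraries. It was not called (edgeR adjusted p = 0.51).

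Of the remaining members, Tspan11 (312727) rose with the block. It had 45.9, 73.7 and 84.7 CPM in differentiated 1, 2 and 5, against 35.7, 52.7 and 58.8 CPM in precursor 1, 2 and 5. The groups overlapped, with the replicate 1 library the lowest of each, and each differentiated library was above its same-numbered precursor library. The log2 fold change was 0.47 with SE 0.27 (edgeR adjusted p = 0.348 without and 0.00455 with the block). Tspan9 lies next to Tspan11 in the reference annotation and was not called (edgeR adjusted p = 0.324) at a log2 fold change of 0.28. Tspan6, Tspan13 and Tspan8 had log2 fold changes of -0.08, 0.09 and 0.37, none of them called.

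Replicate 1 also held the extreme value of many members. For 10 of the 25 tested members replicate 1 was the highest library of both groups, among them Cd63, Cd9, Cd82, Cd53, Tspan2 and Tspan4, where 27.6% of all genes showed this. For 9 members it was the lowest of both groups, among them Cd81, Tspan7, Tspan11 and Tspan15, where 24.4% of all genes did. The summed fibroblast and pericyte markers and the summed microglia markers were also highest in these libraries. The part of other cells in the replicate 1 values was not tested. Without both replicate 1 libraries, 5 members were higher, beside 8.48% of all genes, and 1 was lower, beside 8.11% of all genes. The 5 were Tspan2, Tspan31, Cd9, Tspan11 and Tspan15, and the 1 was Tspan12.

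Among 18 genes of known tetraspanin partners and modifiers, 18 were tested, 2 rose (11.1%, against 5.65% of all genes) and 1 fell (against 3.21% of all genes). Igsf8 (304979), an immunoglobulin protein that binds Cd9 and Cd81 directly, had 172, 171 and 196 CPM in differentiated 1, 2 and 5, against 73.1, 74.0 and 73.0 CPM in precursor 1, 2 and 5. It rose 2.45-fold (log2 fold change 1.29, SE 0.10, edgeR adjusted p = 0.000632), and the call held in each of the 6 fits without 1 library. The related Ptgfrn was at 32.5, 47.4 and 51.8 CPM in differentiated and 38.0, 42.4 and 51.7 CPM in precursor libraries, with a log2 fold change of -0.0047 (SE 0.20). The difference between these 2 partners was not tested. Cldn11 (84588), a tight junction protein of myelin that binds Tspan3, had 563, 575 and 631 CPM in differentiated libraries and 82.4, 29.8 and 35.9 CPM in precursor libraries (log2 fold change 3.58, edgeR adjusted p = 0.0024). Cldn11 rose, and precursor 1 was its highest precursor library.

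Zdhhc2 (246326), an enzyme that attaches palmitate to Cd9 and Cd151 in human cells, fell. It had 45.8, 41.3 and 35.5 CPM in differentiated 1, 2 and 5, against 58.5, 73.2 and 66.3 CPM in precursor 1, 2 and 5 (edgeR adjusted p = 0.0265, with a log2 fold change of -0.69 and SE 0.14). That call held without differentiated 1 or precursor 1 and was lost without differentiated 2 (adjusted p = 0.115), differentiated 5 (0.106), precursor 2 (0.106) or precursor 5 (0.0736). Sdcbp (83841), which encodes syntenin, a cytoplasmic partner of Cd63, had 393, 309 and 276 CPM in differentiated and 558, 440 and 430 CPM in precursor libraries. All its differentiated values were below its precursor values (log2 fold change -0.55, edgeR adjusted p = 0.101 without and 0.00101 with the block). The laminin-binding integrin chains Itga3, Itga6 and Itga7 had log2 fold changes of -0.41, -0.08 and -0.13, none of them called, and Itgb1 had -0.30 (edgeR adjusted p = 0.44 without and 0.0376 with the block). With the block, 3 partners rose (16.7%, against 14.9% of all genes) and 6 fell (33.3%, against 15.7%). The 3 were Igsf8, Cldn11 and the kinase Prkca (log2 fold change 0.48, adjusted p = 0.0164), and the 6 were Adam10, Lrp5, Zdhhc2, Sdcbp, Itgb1 and the lipid kinase Pi4k2b (log2 fold change -0.40, adjusted p = 0.046). Pdcd6ip, Pick1, Hbegf, Pi4k2a, Ptgfrn, Fzd4, Itga3, Itga6 and Itga7 were called in neither edgeR fit.

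Of the tetraspanin superfamily outside the Tspan and Cd names, Rom1 had 13.2, 11.1 and 11.2 CPM in differentiated and 9.76, 8.73 and 6.70 CPM in precursor libraries (log2 fold change 0.50, edgeR adjusted p = 0.185 without and 0.0308 with the block). Upk1b had 0.334, 0 and 0 CPM in differentiated and 1.66, 0.950 and 1.01 CPM in precursor libraries. It was not called without the block (edgeR adjusted p = 0.206 without and 0.0393 with it). Upk1b passed the low-count filter through its precursor libraries, where it was high, so neither p-value can stand as support for a difference. Upk1a and Prph2 did not pass the filter.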

How the data were processed

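The series holds 6 RNA libraries, 3 of differentiated cells and 3 of precursors, and groups come from the sample labels. Per the labels' protocols, ISOGEN was used for extraction and an Illumina stranded total RNA kit for the libraries. Per the submitters' processing notes, reads were handled with StringTie 2.1.3b, HISAT2 2.1.0, Trimmomatic 0.38 and bcl2fastq 2.20.0, listed in no order. These notes name the human build GRCh38, while the table has rat gene identifiers, so no coordinates of the files are printed. The authors deposited 1 table with raw read counts, FPKM and TPM per library and gene. The deposited TPM values are scaled by transcript length and library. The noncoding RNA Rn7sl1 made up 34.2% to 38.8% of them in differentiated and 24.0% to 32.8% in precursor libraries. The TPM of a library has a fixed total, so a higher share leaves less for other genes. The part of Rn7sl1 in the TPM-scale fold changes was not tested. The deposited FPKM values were not used here.

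Counts were tested with edgeR 4.0.16 in R 4.3.3 (quasi-likelihood, TMM, low-count filter, robust estimation), differentiated against precursor, with Benjamini-Hochberg adjustment over all 17797 genes tested. SE was computed as the absolute log2 fold change divided by the root of the F statistic. Alternatives used DESeq2 1.42.0, limma 3.58.1 on log2(TPM + 1), other scalings and filters, and left-out libraries. The edgeR fit without a block, DESeq2 and limma were tested on simulated unpaired counts. The replicate block and the deposited TPM scale were not simulated.

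Titles number replicates 1, 2 and 5. Deviations from group means correlated across genes at 0.642, 0.395 and 0.566 for the same numbers, and from -0.539 to 0.156 for different numbers. Deviations within a group cancel out, so this contrast is partly built in. Same-numbered libraries were treated as pairs on this ground. The labels state no pairing, and it was read from these same libraries. Pairs were used in the replicate block and in the counts of pairs, while the main edgeR fit used the group alone. The members, gene lists and tests were chosen with earlier results of these data known, and the sum of near-identical entries was added after seeing the data. All members are accounted for. Those called and those known from oligodendrocytes are given in every library, as are further members singled out after their values were seen. Motifs were chosen from textbook knowledge. Some genes of the original partner and marker lists are not reported here and were removed from these lists before counting and summing. Reference names and windows are RefSeq GRCr8, in which all 27 members matched.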

Additional observations from a re-analysis of the deposited data

How the results depend on the processing

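Of 419 log2 fold changes of tested members under the alternatives, 344 kept direction and side of the threshold. Tspan2 was called higher under every alternative run. The number of members called higher, 2 in the report, was 4 with DESeq2, 6 with the replicate block, 5 without both replicate 1 libraries, 1 by limma on log2(TPM + 1) with no filter, and 1 to 3 in the fits that left out 1 library. The number called lower, 0 in the report, was 2 with the replicate block, 1 without both replicate 1 libraries, 1 by limma on log2(TPM + 0.1), which was Cd63, and 0 in each of the fits that left out 1 library. The cause of these differences was not tested. The replicate block changed no member's call other than those named in the report. Tspan31 lost its call with library size alone, with no low-count filter, on the TPM scale and without any 1 library. Cd9 passed with other size factors, with library size alone, with no filter, among protein-coding genes alone and on the filtered TPM scale, and without differentiated 1.

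The median log2 fold change of all genes, -0.04 in the report, was -0.19 with library size alone, and the member median, 0.20 in the report, was 0.043. By limma on log2(TPM + 1), which also changed the test and the genes kept, the medians were -0.23 over all genes and -0.085 over members with the filter, and -0.060 over both with no filter. Over all alternatives the sign turned in 43 values of 14 genes, none called (adjusted p of at least 0.477). With library size alone the log2 fold change was -0.0069 for Tspan7, -0.019 for Cd151, -0.071 for Tspan13 and -0.026 for Tspan14. By limma on log2(TPM + 1), with and without the filter, it was -0.018 for Cd81, -0.088 for Tspan3, -0.082 for Tspan7, -0.13 for Cd151, -0.15 for Tspan13, -0.13 for Tspan14, -0.023 for Tspan17, -0.060 for Tspan33 and -0.14 for Cd37. With the pseudocount 0.1 it was -0.018 for Cd81, -0.089 for Tspan3, -0.082 for Tspan7, -0.13 for Cd151, -0.15 for Tspan13, -0.14 for Tspan14, -0.020 for Tspan17, -0.075 for Tspan33 and -0.22 for Cd37. Without the filter Tspan10 had -0.020. Without both replicate 1 libraries it was -0.073 for Tspan13, 0.030 for Cd82, 0.079 for Tspan5 and -0.55 for Tspan10. In the fits that left out 1 library it ranged from -0.39 to 0.030 for Cd63 and from -0.41 to 0.063 for Cd82, each turning without precursor 1, and so did Tspan7 (-0.025 to 0.32), Tspan13 (-0.057 to 0.20) and Tspan5 (-0.25 to 0.076). Tspan6 (-0.15 to 0.039) turned without precursor 2, and Tspan10 (-0.62 to 0.81) without differentiated 1. Members under about 1 CPM (Tspan8, Tspan10, Tspan18, Tspan1 and Tspan32) rest on few reads.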
